A study of Rattus norvegicus with 6 samples.

Results

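Laminin chains are the subunits of the laminins, and their mRNA was compared between vascular smooth muscle (VSM) cells cultured from the soleus feed artery (SFA) of young and old rats. The rule named 9 chains by gene symbol, of which 8 had a row among the 14475 genes counted. These were the alpha chains Lama2, Lama3, Lama4 and Lama5, the beta chains Lamb1, Lamb2 and Lamb3 and the gamma chain Lamc1. Lama1 had no row, and its level is not analysed here. The young group held 3 libraries from male Fischer 344 rats aged 4 months and the old group 3 libraries from such rats aged 24 months, without any treatment. The Results of the paper give 3 rats per group for the RNA sequencing. The cells were grown in medium with fetal bovine serum before the RNA was taken, so these are levels in culture and not in the artery wall. As bulk RNA was sequenced, fewer cells of a type and less RNA per cell cannot be told apart.

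A laminin is a trimer of 1 alpha, 1 beta and 1 gamma chain that is put together inside the cell, secreted, and assembled into the sheet of the basement membrane. The alpha chain carries the globular domains that bind integrins and dystroglycan on the cell surface, while the gamma chain Lamc1 is shared by most laminins. In the vessel wall, Lama4 and Lama5 are the alpha chains known from the basement membranes of endothelium and smooth muscle, and Lama2 is best known from the basement membrane of skeletal muscle and peripheral nerve.

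Lama5 was lower and Lama2 was higher in old VSM cells, and for the other 6 chains the young and old libraries overlapped. Levels are given as CPM, counts relative to the TMM-scaled size of the library, and the libraries held between 44235674 and 59700887 counts. A chain was called when its adjusted p was under 0.05 and its absolute log2 fold change at least 1, with Benjamini-Hochberg adjustment over all 14475 genes. With the quasi-likelihood test of edgeR, 0 of the 8 chains were called (0.00691% of all genes), while 2 had an unadjusted p under 0.05 (22.6% of all genes). The Wald test of DESeq2, which was the tool of the paper, called 2 of the 8 chains (5.56% of all genes). Of these, 1 was higher in old (2.25% of all genes), namely Lama2, and 1 was lower (3.31% of all genes), namely Lama5. limma-voom called 0 chains and 0 genes, with 2 chains (23.1% of all genes) at an unadjusted p under 0.05. The groups did not overlap for 2 of the 8 chains, Lama2 and Lama5, with 1 chain above (14.5% of all genes) and 1 below (14.7%) in old. This share was no higher than that of all genes (29.2%), and the share at an unadjusted p under 0.05 was close to it. Of the 8 chains, 4 were higher and 4 lower in old, where 52% of all genes were higher, and the median log2 fold change was -0.03 compared with 0.02 over all genes.

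**Figure D1:**
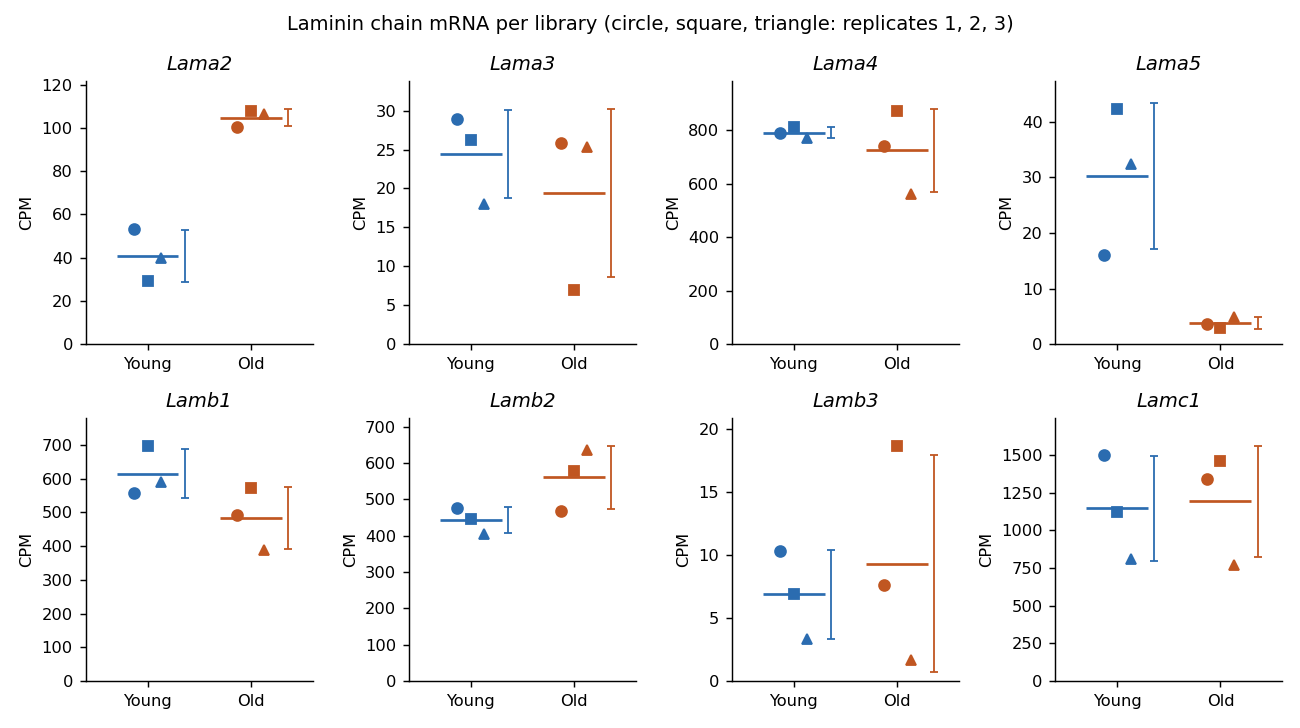
Level of each laminin chain in CPM (vertical axis, from 0) in the 3 young and 3 old libraries, with the mean as a line and the SD as a bar beside the points. The old libraries lie above the young ones for Lama2 and below them for Lama5, and the groups overlap in the other 6 panels.

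Lama5, an alpha chain whose laminins bind integrins strongly, had 16.1, 42.3 and 32.4 CPM in young replicates 1, 2 and 3 and 3.62, 2.87 and 4.93 CPM in old replicates 1, 2 and 3. The lowest young library was above the highest old library. In counts, this was 728 to 2542 in the young and 149 to 264 in the old libraries. Means were 30.3 ± 13.2 CPM in young and 3.80 ± 1.04 CPM in old libraries (mean ± SD, n = 3 each), a 7.95-fold higher fitted level in young. On the log2 scale, old differed from young by -2.99 with a standard error (SE) of 0.40 and a 95% interval of -3.96 to -2.03. The adjusted p of Lama5 was 0.0531 in edgeR and 1.92e-11 in DESeq2. With each library left out in turn, edgeR called Lama5 in 1 of 6 fits, the one without old replicate 1 (log2 fold change -2.96, adjusted p = 0.0359), in which the number of genes called went from 1 to 732. In the other 5 fits its adjusted p in edgeR was 0.0516 to 0.225.

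Lama2, the alpha chain of the laminin of muscle fibers and Schwann cells, went the other way. It had 53.3, 29.3 and 39.9 CPM in young replicates 1, 2 and 3, whereas old replicates 1, 2 and 3 had 100.3, 107.7 and 106.3 CPM. All 3 old libraries were above the highest young library, and they lay close together. Means were 40.8 ± 12.0 CPM in young and 104.7 ± 3.94 CPM in old libraries (mean ± SD, n = 3 each), a 2.57-fold higher fitted level in old. Lama2 had a log2 fold change of 1.36 (SE 0.21, 95% interval 0.85 to 1.87), and its adjusted p was 0.0574 in edgeR and 1.93e-06 in DESeq2. As with Lama5, edgeR called it in 1 of 6 fits with a library left out, that without old replicate 1 (log2 fold change 1.39, adjusted p = 0.0374), and the adjusted p of Lama2 was 0.0728 to 0.225 in the other 5.

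The sequence before the transcription start is shown for both chains because they differed with age in opposite directions. The sequences are from RefSeq (build GRCr8, while the counts were made on Rnor 6.0), chr1:19491896-19492125 on the plus strand for Lama2 and chr3:187695975-187696224 on the minus strand for Lama5, and both are written 5′ to 3′. Lama5 is given as 250 bases that end at the last base before the start. For Lama2 230 bases are given. The 20 bases nearest the start used here lie within the annotated span of Lama2 and are not shown. Capitals mark matches on either strand to the GC box (GGGCGG, or CCGCCC on the other strand) and to the CArG box, the element bound by serum response factor in genes of the contractile apparatus.
Lama2: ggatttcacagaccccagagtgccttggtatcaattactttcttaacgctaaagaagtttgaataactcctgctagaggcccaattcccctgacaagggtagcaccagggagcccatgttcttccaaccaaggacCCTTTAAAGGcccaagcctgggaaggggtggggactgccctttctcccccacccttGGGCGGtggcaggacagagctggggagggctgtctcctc
Lama5: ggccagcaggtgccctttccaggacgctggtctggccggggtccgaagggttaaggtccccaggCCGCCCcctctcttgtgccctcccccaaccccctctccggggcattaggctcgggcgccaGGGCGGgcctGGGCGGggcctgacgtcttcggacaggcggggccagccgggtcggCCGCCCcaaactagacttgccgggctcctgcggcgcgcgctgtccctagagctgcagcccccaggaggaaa
The Lama5 window held 4 GC boxes and no CArG box. In Lama2, 1 GC box and 1 CArG box were found, the latter at positions -115 to -106, counted back from -1 at the last base before the start, which lies 20 bases beyond the end of the Lama2 sequence shown. Over 250 bases before the start, 30.5% of 33469 rat promoters held a GC box and 1.5% a CArG box. A sequence was at hand for 8 of the 9 chains, all but Lamb2, and 4 of the 8 held a GC box (Lama2, Lama5, Lamb1 and Lamc1), which were chains that were higher, lower and of overlapping level in old cells. The CArG box was found in 1 of the 8. Also searched were the TATA box (TATAAA), AP-1 site (TGAGTCA), TEAD site (GGAATG) and E-box (CACGTG). The TATA box matched 1 chain (Lama4), the AP-1 site 1 (Lama3), the TEAD site 1 (Lamc1) and the E-box 0. GC content was 72.8% for Lama5 and 55.6% for Lama2, compared with a median of 51.2% over all promoters. These matches describe the letters and were not tested for binding.

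Lama4, the alpha chain of laminins of vascular and other mesenchymal cells, differed little. It had 788.7, 812.3 and 772.5 CPM in young replicates 1, 2 and 3 and 740.3, 871.0 and 563.4 CPM in old replicates 1, 2 and 3. The young libraries lay within the range of the old ones, of which replicate 3 was the lowest. Lama4 differed by -0.13 on the log2 scale (SE 0.18, 95% interval -0.55 to 0.30, adjusted p = 0.684 in edgeR), an interval that does not reach 1 in either direction.

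Lama3, an alpha chain typical of epithelia, had 28.9, 26.3 and 18.0 CPM in young replicates 1, 2 and 3 and 25.9, 6.94 and 25.4 CPM in old replicates 1, 2 and 3. Old replicate 2 stood apart from the other old libraries. With a log2 fold change of -0.33 (SE 0.48, 95% interval -1.50 to 0.83, adjusted p = 0.700 in edgeR), Lama3 gave no call, and the value was 0.070 without old replicate 2.

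Since the lengths of the transcripts were not at hand, levels of different chains were not ranked, but the ratio of counts between a pair of chains can be compared between libraries. Per count of Lama4, there were 0.0204, 0.0520 and 0.0419 counts of Lama5 in young replicates 1, 2 and 3 and 0.00489, 0.00329 and 0.00874 in old replicates 1, 2 and 3. The ratio was thus lower in each old than in each young library, with a geometric mean 6.82-fold higher in young. Per count of Lama4, Lama2 had 0.0676, 0.0361 and 0.0516 counts in young and 0.135, 0.124 and 0.189 counts in old replicates 1, 2 and 3. This ratio was 2.93-fold higher in old. Set directly against each other, Lama5 had between 0.303 and 1.44 counts per count of Lama2 in young libraries and between 0.0266 and 0.0463 in old libraries. These ratios are descriptions without a test.

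**Figure D2:**
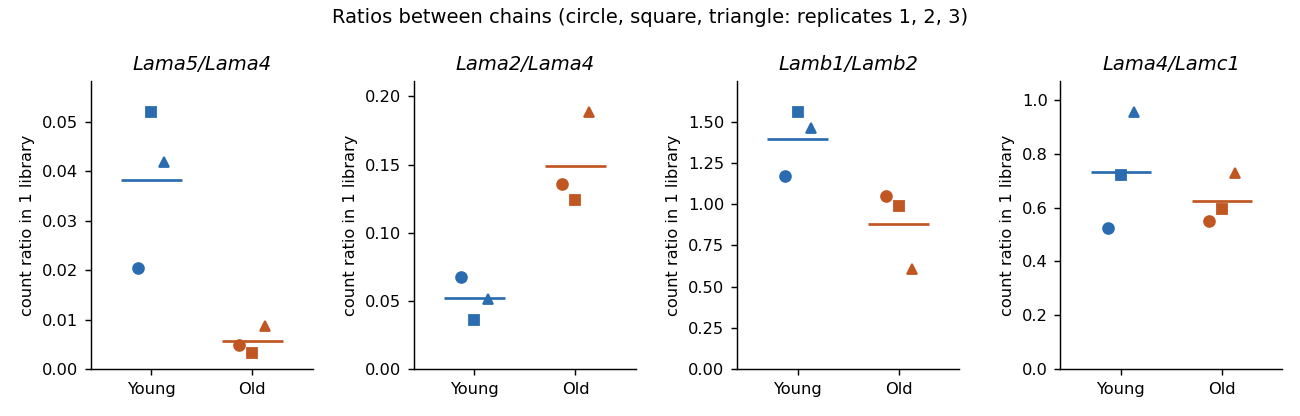
Count ratio of chain pairs in each library (vertical axis, no unit, from 0), with the arithmetic mean of each group as a line. Young and old libraries are separate for Lama5/Lama4, Lama2/Lama4 and Lamb1/Lamb2 and overlap for Lama4/Lamc1.

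The beta chains Lamb1 and Lamb2, either of which can join Lamc1 in laminins of the vessel wall, had small differences of opposite sign. Lamb1 had 557.5, 697.6 and 591.8 CPM in young and 491.5, 572.8 and 388.5 CPM in old replicates 1, 2 and 3. Its old libraries tended to the low side, but old replicate 2 was above young replicate 1. Lamb1 differed by -0.35 on the log2 scale (SE 0.18, 95% interval -0.77 to 0.08, adjusted p = 0.288 in edgeR). Lamb2 had 476.3, 446.6 and 404.7 CPM in young and 467.4, 579.1 and 637.1 CPM in old replicates 1, 2 and 3. Here old replicates 2 and 3 were above the young libraries, while old replicate 1 was between them. Lamb2 differed by 0.34 (SE 0.15, 95% interval -0.02 to 0.70, adjusted p = 0.233 in edgeR). The ratio of Lamb1 to Lamb2 counts separated the groups, at 1.17, 1.56 and 1.46 in young and 1.05, 0.989 and 0.610 in old replicates 1, 2 and 3. On the log2 scale the mean ratio was 0.47 ± 0.22 (SD, n = 3) in young and -0.22 ± 0.43 (SD, n = 3) in old. Neither chain separated the groups alone, and a ratio of chains that differ in opposite directions separates more easily. More pairs of chains were compared than are given here, and how often ratios of other genes separate was not determined. The ratio is thus a description without a test.

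Lamb3, which joins Lama3 in a laminin of epithelia, was variable. It had 10.3, 6.93 and 3.30 CPM in young and 7.62, 18.6 and 1.68 CPM in old replicates 1, 2 and 3. Old replicates 2 and 3 were the highest and lowest of all 6 libraries, so the level of Lamb3 differed more within the old group than between the groups. Its log2 fold change of 0.44 had an SE of 0.82 and a 95% interval of -1.53 to 2.41 (adjusted p = 0.765 in edgeR), and without old replicate 2 the value was -0.56. Lamb3 and Lama3 did not run together, as Lamb3 was highest and Lama3 lowest in old replicate 2.

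Lamc1, the gamma chain of most laminins, had 1505, 1126 and 807.4 CPM in young and 1344, 1462 and 771.7 CPM in old replicates 1, 2 and 3. Each group covered nearly the same range. Lamc1 differed by 0.06 on the log2 scale (SE 0.32, 95% interval -0.71 to 0.83, adjusted p = 0.926 in edgeR), and its sign changed when single libraries were left out (-0.14 to 0.30). Among the 8 chains, Lama4 and Lamb1 varied most alike over the 6 libraries, with a root mean square difference of 0.13 between their centred log2 CPM, and the next pair was Lama4 and Lamc1 at 0.30. Of 8564 other genes, the 3 with a pattern closest to Lamc1 by the same measure were Auh (0.11), an enzyme of leucine breakdown, Plod2 (0.15), a lysyl hydroxylase of collagen, and Acvr1b (0.15), an activin receptor. For Lama5, the chain with the lowest p in edgeR, they were Casq2 (0.30), which stores calcium in the sarcoplasmic reticulum, Tgfb3 (0.48), a TGF-beta ligand, and Afap1l2 (0.51), an actin filament associated protein gene. These likenesses are descriptions over 6 libraries, in which genes can run alike through age, depth or culture. Lamc3, a further gamma chain that the rule did not name, had at most 25 counts in a library, too few for a comparison.

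**Figure D3:**
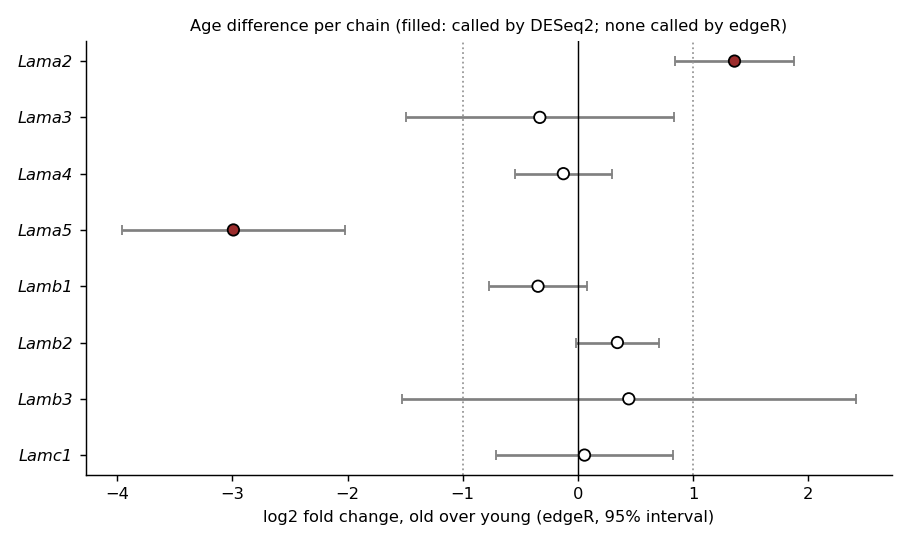
log2 fold change of old over young from edgeR (horizontal axis) with its 95% interval for the 8 chains. Dotted lines mark an absolute value of 1, and the interval lies outside 0 for Lama2 and Lama5, which DESeq2 called.

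Laminin receptors were mostly lower in old VSM cells. Of the 9 receptor genes, 8 were lower and 1 higher, with a median log2 fold change of -0.92, compared with 0.02 over all genes. DESeq2 called 4 of the 9, all lower in old, where 3.31% of all genes were called lower, and without young replicate 2 it called 2. edgeR called 0 of them, with 6 of the 9 at an unadjusted p under 0.05 (22.6% of all genes), and 1 without old replicate 1. Itga7, an integrin subunit of muscle cells that binds laminins, had 13.0, 15.0 and 14.6 CPM in young and 1.99, 2.75 and 3.47 CPM in old replicates 1, 2 and 3. All old libraries were below the young ones, with a log2 fold change of -2.37 (SE 0.23) and an adjusted p of 0.0531 in edgeR and 7.83e-19 in DESeq2. The other genes called by DESeq2 were Itga1 (log2 fold change -1.55) and Itga3 (-1.02), 2 further alpha subunits, and Bcam (-3.32), which binds Lama5-containing laminins. Bcam was near the lower end of detection, with 22, 70 and 74 counts in young and 6, 10 and 0 counts in old replicates 1, 2 and 3. The 2 genes of the list with the highest CPM were not called. Itgb1, the common beta subunit of these integrins, had a log2 fold change of -0.85 (adjusted p = 0.189 in edgeR and 0.0502 in DESeq2), and Dag1, which encodes dystroglycan, had -0.66 (adjusted p = 0.166 in edgeR and 0.0406 in DESeq2, with the fold below the threshold).

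Of 24 genes for other components of the basement membrane or proteins bound to it, 21 had a row. In old cells 17 of them were lower and 4 higher, with a median log2 fold change of -0.45. DESeq2 called 6 of the 21, all lower in old (3.31% of all genes), and between 4 and 6 with a library left out. edgeR called 0, and 1 without old replicate 1. At an unadjusted p under 0.05 in edgeR there were 6 of the 21, a share close to the 22.6% of all genes. Col15a1, a collagen at the outer face of the basement membrane, had 331.0, 344.2 and 497.2 CPM in young and 136.4, 99.9 and 108.8 CPM in old replicates 1, 2 and 3. Its old libraries were all below the young ones, by -1.76 on the log2 scale (SE 0.21), and its adjusted p was 0.0531 in edgeR and 1.32e-11 in DESeq2. Ntn4, a netrin that binds laminin gamma chains and disrupts laminin networks, had 25.6, 37.8 and 45.0 CPM in young and 5.95, 18.1 and 11.8 CPM in old replicates 1, 2 and 3. Ntn4 likewise did not overlap between the groups and differed by -1.59 on the log2 scale (SE 0.42), with an adjusted p of 0.116 in edgeR and 0.00316 in DESeq2. The other genes called by DESeq2 were Col4a3 (log2 fold change -6.33), a chain of type IV collagen, Smoc1 (-3.72), a calcium-binding matrix protein, Tinagl1 (-2.96), a secreted basement membrane protein, and Fras1 (-1.89), an extracellular matrix protein of epithelial basement membranes, with at most 88 counts in a library. Nid1, Nid2 and Hspg2, which link the laminin network to type IV collagen, were not called. Nid1 differed by -0.11 on the log2 scale (SE 0.20, adjusted p = 0.763 in edgeR). For Sparc, a collagen-binding matrix protein, the difference was 0.37 (SE 0.22, adjusted p = 0.348 in edgeR).

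The enzymes that build the laminin-binding sugar chain of dystroglycan differed little. All 13 had a row, of which 4 were higher and 9 lower, with log2 fold changes from -0.39 to 0.15 and a median of -0.06. Neither edgeR nor DESeq2 called any of them at these thresholds, and 3 of the 13 had an unadjusted p under 0.05 in edgeR, about the share of all genes (22.6%). All old libraries were below the young ones for 4 of the 13 (14.7% of all genes) and above them for 0 (14.5% of all genes). Pomgnt1, which extends the O-mannose glycans of dystroglycan, had the lowest log2 fold change (-0.39). It was at 94.1, 105.0 and 99.1 CPM in young and 75.9, 81.5 and 70.7 CPM in old replicates 1, 2 and 3. Its adjusted p was 0.106 in edgeR and 0.00652 in DESeq2, with the fold below the threshold.

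**Figure D4:**
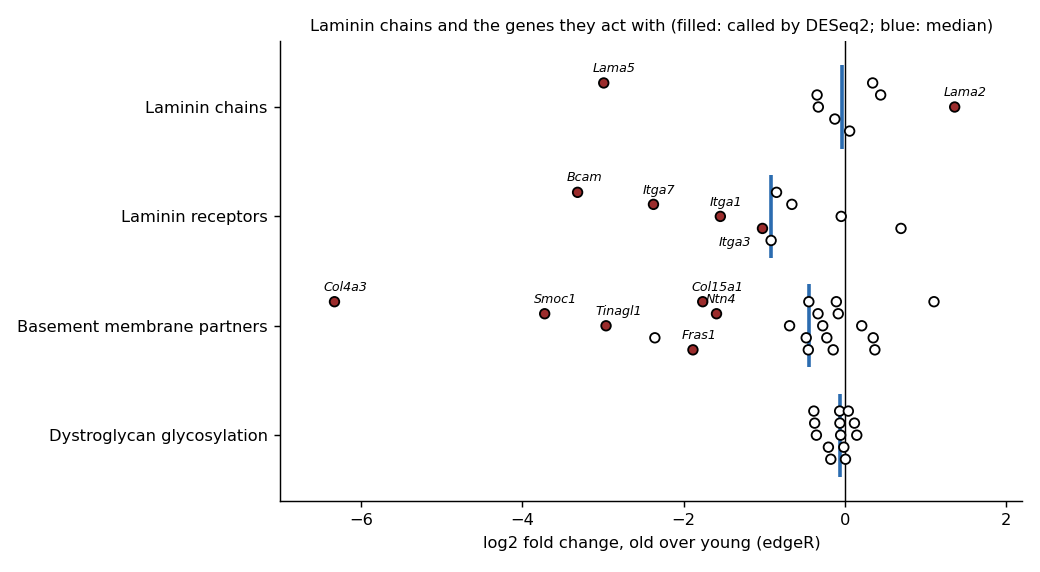
log2 fold change of old over young from edgeR (horizontal axis) for each gene with a row in 4 lists, with filled points for genes called by DESeq2 and a blue line at the median of the list. The medians are -0.03 for laminin chains, -0.92 for receptors, -0.45 for basement membrane partners and -0.06 for dystroglycan glycosylation.

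Markers of smooth muscle and of other cell types were read beside the chains. All 12 smooth muscle markers had a row, with Acta2 and Tagln at the highest CPM. DESeq2 called 8 of them lower in old (3.31% of all genes), and edgeR called 0 with 11 at an unadjusted p under 0.05 (22.6% of all genes). All old libraries were below the young ones for 11 markers (14.7% of all genes), and the groups overlapped for 1, Des. Their summed level was 15184 to 26749 CPM in young and 5744 to 8555 CPM in old libraries. Of the 17 skeletal muscle markers 7 had a row, led by Acta1 and Myh1, and DESeq2 called 3 of the 7 lower (3.31% of all genes). The 7 summed to 179 to 395 CPM in young and 41.7 to 77.4 CPM in old libraries. Both sums were thus lower in old, as Lama5 was, although 2 of the 7 skeletal muscle markers, Tnnt3 and Neb, had log2 fold changes of 0.92 and 0.76. Fibroblast markers, all 12 with a row, summed to 768 to 1382 CPM in young and 1722 to 2856 CPM in old libraries and so were higher in old, as was Lama2, a gene that fibroblasts are known to express. Among them 11 had a log2 fold change above 0 (52% of all genes), and DESeq2 called 3 higher (2.25% of all genes), namely Dcn, Clec3b and Col14a1. Mfap5 and Col14a1, at the highest CPM, had log2 fold changes of -0.16 and 2.43. The part of these cell types in the laminin differences was not tested.

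Of 12 endothelial markers 8 had a row, and Cdh5, Tie1, Emcn and Cldn5 had none. Pecam1, Kdr and Vwf were at most 0.773 CPM in every library. The endothelial sum was 196 to 358 CPM in young and 79.7 to 207 CPM in old libraries, with overlap, and Ptprb and then Egfl7 gave the largest parts of it. Erg, an endothelial transcription factor, had 2.46, 6.85 and 3.44 CPM in young and 0.362, 0.904 and 1.85 CPM in old replicates 1, 2 and 3. It was the 1 of 8 endothelial markers that DESeq2 called, where 3.31% of all genes were called lower. Its adjusted p was 0.0194 in DESeq2 and 0.159 in edgeR. With a log2 fold change of -2.03, Erg was lower in old as Lama5 was. Of the 8 endothelial markers 5 were lower in old, while 3 were higher, namely Tek (0.77), Vwf (0.65) and Pecam1 (0.28). The part of these markers in the Lama5 difference was not tested. Schwann cell markers, to be read beside Lama2, had 5 of 12 rows, without Sox10. Their sum was 29.8 to 84.6 CPM in young and 62.9 to 95.7 CPM in old libraries, mostly from S100b and then Prx. Macrophage markers had 4 of 12 rows and at most 17.2 CPM in sum, led by Cd14 and Csf1r. Epithelial markers, to be read beside Lama3 and Lamb3, had 2 of 12 rows, Krt8 and Dsp, and at most 7.25 CPM in sum.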

How the data were processed

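The authors deposited raw gene counts, whole numbers per gene and library. Per the Methods and the submitters' processing notes, reads were trimmed with cutadapt 3.5 through Trim Galore 0.6.7, aligned to Rnor 6.0 with STAR 2.7.10b and counted with featureCounts of Subread 2.0.8. How strand, mates and reads with several matches were treated was not given in the sources used here. No row had fewer than 3 libraries with 10 counts or more, so low genes had been removed, and 1518 rows, named by Ensembl identifier, had no symbol. Of the counts from 1 to 19, 68.7% to 71.1% were even, as counting both mates of a fragment gives, and fragments would then be fewer than counts.

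Groups were taken from the sample titles. All rows were fitted in R 4.3.3 with edgeR 4.0.16 (TMM, quasi-likelihood F test, young as reference, no covariates). SEs were derived from the log2 fold change and its F statistic. As alternatives, DESeq2 1.42.0 was run with independent filtering at 0.05, which left 292 genes without an adjusted p, and voom with limma 3.58.1. The fits were tested on simulated counts. An exact permutation test of 3 against 3 libraries cannot give a two-sided p below 0.1 and was not used.

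The chains and lists were chosen with earlier results of these data known. Named genes were the chains, the receptor, basement membrane and glycosylation genes called by edgeR or DESeq2, and the 2 with the highest mean CPM of each list, markers included. Nid2, Hspg2, Col4a1, Col4a2, Col4a5, Col4a6, Des, Tnnt3, Neb, Dcn, Clec3b, Erg, Tek, Pecam1, Kdr, Vwf and the markers without a row were named after their values were seen, as was Lamc3. Some genes that this rule takes in are not reported here. Genes close to Lamc1 and Lama5 in pattern needed a mean of at least 10 CPM. Other alternatives were RLE factors, library size only, 2 filters, halved counts, the replicate number as a block, other thresholds and each library left out. The edgeR likelihood ratio test and DESeq2 without a limit on the fold change were added after seeing the data.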

Additional observations from a re-analysis of the deposited data

How the results depend on the processing

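Lama2 stayed higher and Lama5 lower in old cells in each of 21 other fits. As the groups of both chains did not overlap, leaving out a library could not change this direction. Each was called in 10 of the 21 fits, mostly those of DESeq2. Both were called (2 chains) by DESeq2, by DESeq2 without a limit on the fold change, by the edgeR likelihood ratio test, with at least 10 counts required in all 6 libraries, and at an adjusted p under 0.1 in edgeR. DESeq2 without that limit and the adjusted p under 0.1 are other thresholds and are not among the 21 fits. Over all genes these settings called 805, 1767, 724, 97 and 381 genes, and limma-voom called 0. With a library left out, edgeR called between 0 and 2 chains and between 0 and 732 genes, the highest without old replicate 1, while DESeq2 called 2 chains each time and 551 to 1377 genes. The cause was not tested.

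Of 168 refitted log2 fold changes of the chains, 13 changed sign, all in chains that were not called. Lamb3 was -0.0071 in limma-voom. With a library left out, edgeR gave -0.59 to 0.070 for Lama3, -0.28 to 0.026 for Lama4, -0.56 to 0.94 for Lamb3 and -0.14 to 0.30 for Lamc1. DESeq2 gave -0.60 to 0.068 for Lama3, -0.28 to 0.017 for Lama4, -0.56 to 0.93 for Lamb3 and -0.15 to 0.29 for Lamc1.

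Same-numbered young and old libraries deviated from their group means with correlations of 0.06, 0.31 and 0.29 over 12257 genes. Young replicates 2 and 3 were closest to the old library of the same number, while young replicate 1 was closest to old replicate 2 (0.35). The numbers were not taken as pairs, and the replicate block is given as an alternative. With the replicate block, 0 chains and 1 gene (Adamts15) were called, and Lama5 was at -2.91 (adjusted p = 0.0852 in edgeR) and Lama2 at 1.40 (adjusted p = 0.0900 in edgeR). Levels per transcript length were not run, since no lengths were at hand. Each of the 8 chains had at least 90 counts in every library, whereas Bcam had at most 74 and Lamc3 at most 25.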
